A study of Solanum lycopersicum with 12 samples.

Results

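The whole fruits of *VvSUC27*-OE tomato were compared directly with those of *VvSUC11*-OE tomato, using 6 of the 12 RNA-seq libraries of the series: the 3 libraries labelled as *VvSUC27* overexpression and the 3 labelled as *VvSUC11* overexpression. No WT library entered the test, and the 3 WT and 3 *VvSUC12*-OE libraries are given beside it as levels only. The study overexpressed single sucrose transporters of grapevine in tomato (*Solanum lycopersicum* cv. Micro-Tom, a dwarf cultivar) and asked how each changed the fruit and its seeds. Both groups carried a grapevine coding sequence behind the constitutive 35S promoter in a Gateway vector, introduced by *Agrobacterium* and selected on hygromycin, and both were sampled at 5 days post-anthesis (DPA). Each genotype was represented by a single transgenic line. The *VvSUC27*-OE fruits came from a T0 plant line and the *VvSUC11*-OE fruits from a T1 line, so transgene, line and generation cannot be told apart in any value below. The study describes its 3 libraries per group as independent biological replicates. Developing seeds were not removed before grinding, so that in such bulk RNA fewer cells of a type and less RNA per cell cannot be told apart. The grapevine transcripts are not rows of the tomato gene table and were not analysed here.

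Sucrose transporters of the SUT/SUC family are plasma membrane or vacuolar proteins that move sucrose together with protons, and they load and unload the phloem that feeds fruits and seeds. At the stage sampled, a tomato fruit is in the cell division phase and its ovules hold very young embryos and endosperm. Its cells contain steroidal glycoalkaloids, the bitter defence compounds of the nightshade family. Tomato also responds to wounding by making proteinase inhibitors and other proteins that hinder digestion in insects, under the control of the peptide systemin and of jasmonate.

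The deposited table held 22827 genes, and 18777 were tested, those that reached 10 scaled counts in 3 or more libraries out of 6. Scaled totals lay between 20537606 and 21795363 in the 6 libraries. Libraries of the same line correlated at r = 0.989 to 0.992 across genes and libraries of different lines at 0.923 to 0.930, a description over genes, which are not independent replicates. The first principal component, with 84.7% of the variance, separated the lines. Among fruit markers, the fruit-specific protein gene18098 was at 21250 to 22580 FPKM (fragments per kilobase of transcript, scaled to the mapped fragments of the library) in *VvSUC27*-OE and at 39730 to 42230 FPKM in *VvSUC11*-OE, the fruit MADS-box regulator *TAGL1* (gene18532) was at 117 to 121 and 125 to 139 FPKM, and the ripening enzyme polygalacturonase-2 (gene25136) was listed at 0 in all 3 *VvSUC27*-OE libraries and at 1.44 to 1.69 FPKM in *VvSUC11*-OE.

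A DEG was a gene with |log2FC| above 1 and a Benjamini-Hochberg adjusted p (FDR) under 0.01 in limma, fitted on log2(scaled count + 1) over the 6 libraries. Of the 18777 genes tested, 2002 were DEGs (10.7%), 690 of them higher in *VvSUC27*-OE (3.67%) and 1312 lower (6.99%). FDR alone was passed by 9810 genes, the libraries of the lines did not overlap for 12419 genes (66.1%), and the median SE of a log2FC was 0.0775. Spread between libraries of a line was small, and most genes past the FDR limit were below the fold threshold. The median log2FC of all genes tested was 0.01. This value and the shares of 3.67% higher and 6.99% lower are those against which the gene lists below are read. Because genes could enter the test through a single line, 269 of the 1312 lower DEGs were genes that passed the filter in *VvSUC11*-OE alone, and 107 of the 690 higher DEGs were genes that passed it in *VvSUC27*-OE alone. By the filter alone the libraries of such genes could not overlap between the lines, which favoured a call. Of the genes that passed in *VvSUC27*-OE alone 107 of 121 were DEGs, and in *VvSUC11*-OE alone 269 of 297. Their number in a list is given as entries through a single line. Fold bounds against libraries at 0 use 3 scaled counts per library, and ratios for genes with few counts carry a 95% interval that covers counting error only. The log2FC of such genes depends on the pseudocount.

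**Figure D1:**
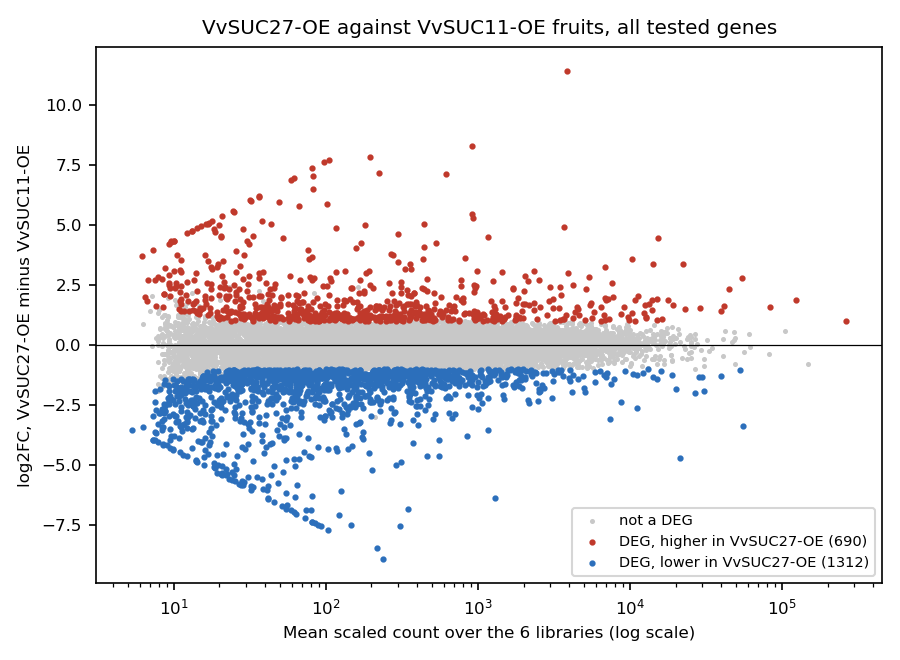
Every tested gene by its mean scaled count over the 6 libraries (horizontal, log scale) and its log2FC, *VvSUC27*-OE minus *VvSUC11*-OE (vertical). Red points are the 690 DEGs higher in *VvSUC27*-OE, blue points the 1312 lower and grey points genes that were not DEGs, and calls in both directions run from low to high counts.

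The single largest difference was in *HDG1*-like (gene14822), a homeodomain-leucine zipper gene of the class that specifies epidermis. It was at 168, 167 and 164 FPKM in the *VvSUC27*-OE libraries and at 0.0809, 0.0624 and 0.0223 FPKM in the *VvSUC11*-OE libraries (log2FC = 11.39, SE 0.183, adjusted p = 5.18e-18), a ratio of 3880 with an interval of 1780 to 10600. With 3, 2 and 1 scaled counts in *VvSUC11*-OE, it was an entry through *VvSUC27*-OE alone. The WT mean was 0.0388 FPKM and the *VvSUC12*-OE mean 13.6 FPKM, so that this transcript was high in *VvSUC27*-OE and near 0 in WT. Among the other informative genes at the extremes, an *ATHB-14*-like transcript (newGene_351), from a class of leaf and ovule polarity regulators, was at 13.0 to 14.5 FPKM in *VvSUC27*-OE against 0.0408 to 0.109 FPKM in *VvSUC11*-OE, and the WT mean of 14.7 FPKM lay at the *VvSUC27*-OE level. A GABA transaminase 2-like gene (gene19535) was at 7.51 to 8.15 FPKM against 0 in all *VvSUC11*-OE libraries, at least 69.9-fold higher. In the other direction, an ATP-citrate synthase alpha chain (gene10439), a subunit of the enzyme that supplies cytosolic acetyl-CoA, was listed at 0 in every *VvSUC27*-OE library and at 17.0 to 21.2 FPKM in *VvSUC11*-OE, at least 159-fold lower. Among the DEGs with a mean above 100 FPKM in either line, 100 were higher and 93 lower.

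The enzymes that make sterols were higher in *VvSUC27*-OE at many steps of the pathway. Of 39 genes with sterol or mevalonate enzyme annotations, a list chosen after its values had been seen, 37 were tested. Of these, 14 (37.8%, beside 3.67% of all tested genes) were DEGs higher in *VvSUC27*-OE and none was lower, with a median log2FC of 0.66. FDR alone was passed by 26 higher and 2 lower genes. The mevalonate pathway builds the isoprenoid units, squalene is made from them, and squalene is cyclised to cycloartenol and trimmed to the sterols. At the entry, HMG-CoA synthase *HMGS1* (gene20986) was at 583, 591 and 573 FPKM in *VvSUC27*-OE and 154, 162 and 161 FPKM in *VvSUC11*-OE (log2FC = 1.88, adjusted p = 5.18e-18). HMG-CoA reductase 1 (*HMGR1*, gene5537), the regulated step of the pathway, stood at 414 to 420 FPKM against 190 to 204 FPKM (log2FC = 1.01, adjusted p = 4.21e-14). This call sat on the fold threshold and was lost when libraries were rescaled to the same total or when replicate 2 of either line was left out, with the direction kept. Squalene synthase *SQS1* (gene3567) was at 175 to 181 FPKM against 82.4 to 86.1 FPKM, and squalene monooxygenase (gene11633), which oxidises squalene before cyclisation, at 291 to 297 FPKM against 136 to 150 FPKM. Cycloartenol synthase *CAS1* (gene11227), which closes the ring system, was at 240 to 249 FPKM against 97.6 to 100.3 FPKM (log2FC = 1.28). None of these genes overlapped between the lines, which was also so for 66.1% of all tested genes.

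Beyond cycloartenol more enzymes were higher. The largest difference among the sterol DEGs belonged to a delta(24)-sterol reductase-like gene (gene4725), whose product reduces the sterol side chain, with 1834, 1855 and 1783 FPKM in *VvSUC27*-OE and 356, 357 and 373 FPKM in *VvSUC11*-OE (log2FC = 2.35, SE 0.0277, adjusted p = 1.2e-19). The WT mean was 796 FPKM and the *VvSUC12*-OE mean 569 FPKM, both between the lines compared. 7-Dehydrocholesterol reductase (*DWF5-2*, gene16320), which removes a ring double bond late in the route, was at 433, 414 and 438 FPKM against 103, 109 and 111 FPKM (log2FC = 1.99, SE 0.032, adjusted p = 5.18e-18). Both methylsterol monooxygenase families, which strip the methyl groups at the fourth carbon, were higher, a 2-2-like gene (gene14333) at 1072 to 1110 FPKM against 308 to 321 FPKM and a 1-1-like gene (gene2024) at 962 to 967 FPKM against 309 to 320 FPKM. The sterol 14-demethylase *CYP51* (gene278) was at 1004 to 1019 FPKM against 358 to 366 FPKM (log2FC = 1.5, adjusted p = 1.66e-17), and delta14-sterol reductase *HYD2* (gene21581) at 143 to 151 FPKM against 40.4 to 46.4 FPKM (log2FC = 1.75). A sterol delta8-delta7 isomerase (gene16695), which the list's words did not reach and which was named after its values were seen, was at 572 to 605 FPKM against 214 to 234 FPKM (log2FC = 1.39, adjusted p = 5.82e-15).

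The rise did not extend to every copy of these enzymes. A second 7-dehydrocholesterol reductase gene (gene396) was at 98.0 to 103 FPKM in *VvSUC27*-OE and 92.3 to 94.0 FPKM in *VvSUC11*-OE (log2FC = 0.08), a second C-5 sterol desaturase (gene4323) had a log2FC of -0.02 and a C-4 methylsterol oxidase (gene16537) of 0.01. Sterol C-24 methyltransferase 1 (*SMT1*, gene1771), which commits cycloartenol to the plant sterols with an alkylated side chain, was at 42.4 to 45.1 FPKM against 46.9 to 49.2 FPKM (log2FC = -0.14, adjusted p = 0.0122). Another gene annotated for this step (gene25131) was a higher DEG, at 20.55 to 22.82 FPKM against 7.15 to 7.48 FPKM (log2FC = 1.57, adjusted p = 1.62e-11). Isopentenyl diphosphate isomerase (gene11071) was at 261 to 269 FPKM against 156 to 164 FPKM (log2FC = 0.73), below the fold threshold, and *HMGR2* (gene4169) had a log2FC of -0.89. Of the 14 sterol DEGs, 4 lost the call in at least 1 alternative setting, among them *SQS1*, a C-5 sterol desaturase (gene5896) and ergosterol biosynthetic protein 28 (gene11609) with equal library totals only, where the median log2FC of all tested genes moved to -0.06.

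The steroidal glycoalkaloid genes, which start from cholesterol, were higher as well. Tomato keeps most of its GLYCOALKALOID METABOLISM (*GAME*) genes in clusters, and 9 neighbouring genes of these clusters, chosen by gene ID after their values had been seen, were all DEGs higher in *VvSUC27*-OE, with a median log2FC of 1.74. *GAME4* (gene27821), a cytochrome P450 on the way from the sterol skeleton to the alkaloid, was at 694, 729 and 693 FPKM in *VvSUC27*-OE and 243, 257 and 272 FPKM in *VvSUC11*-OE (log2FC = 1.48). *GAME12* (gene27822), the aminotransferase that adds the nitrogen, was at 2201 to 2266 FPKM against 813 to 859 FPKM (log2FC = 1.41). A cellulose synthase-like G2 gene in the cluster (gene17950) was at 2677 to 2792 FPKM against 883 to 897 FPKM (log2FC = 1.6). The sugar-adding enzymes followed the same order. *GAME1* (gene17955), a galactosyltransferase for the aglycone tomatidine, was at 361 to 370 FPKM against 95.9 to 103 FPKM (log2FC = 1.90). *GAME17* (gene17954), a glucosyltransferase of the same chain, was at 155, 154 and 153 FPKM against 24.3, 22.1 and 24.7 FPKM (log2FC = 2.72, SE 0.0439, adjusted p = 5.18e-18), and here WT, with a mean of 274 FPKM, lay above both lines. The most abundant gene of the cluster, gene17952, annotated without a function, was at 7734 to 8144 FPKM against 2130 to 2188 FPKM (log2FC = 1.87). *GAME2* (gene17951) was the weak member, at 0.395 to 0.957 FPKM against 0.099 to 0.424 FPKM with overlapping FPKM (log2FC = 1.74, adjusted p = 0.00865), and its call was lost in 8 of 13 alternative settings. For the sterol DEGs the *VvSUC12*-OE mean was nearer to *VvSUC27*-OE or beyond it in 4 of 14 and the WT mean in 8 of 14.

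**Figure D2:**
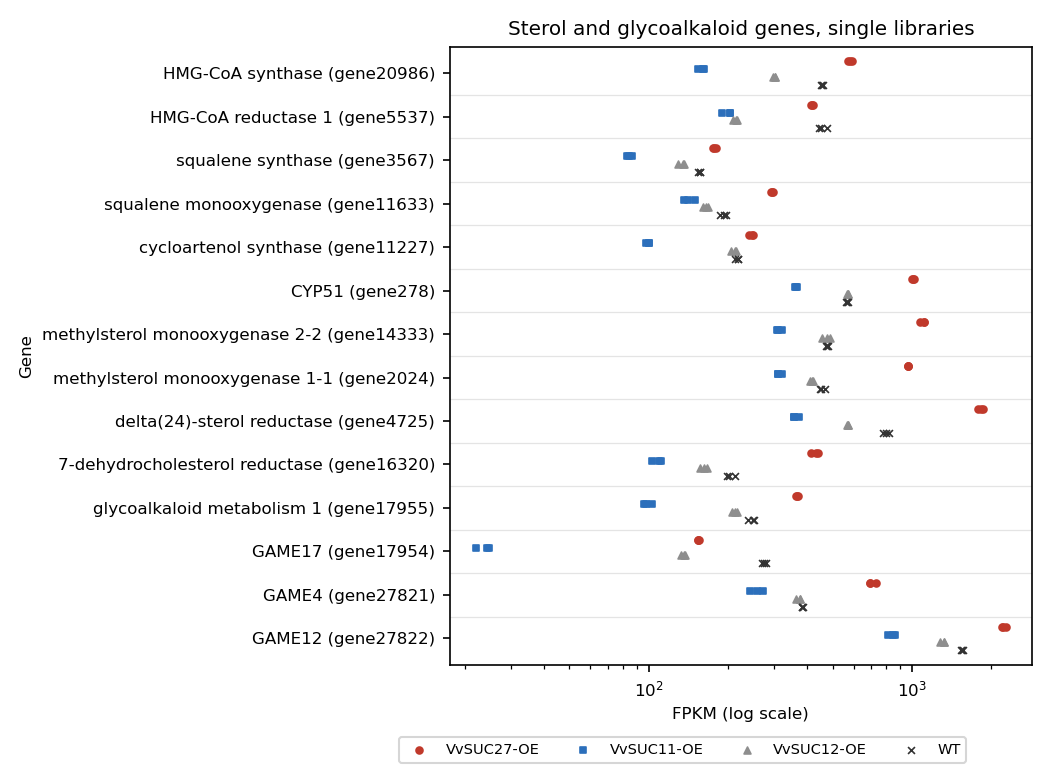
FPKM (log scale) of 14 sterol and glycoalkaloid genes in single libraries, red circles for *VvSUC27*-OE, blue squares for *VvSUC11*-OE, grey triangles for *VvSUC12*-OE and black crosses for WT. The 3 *VvSUC27*-OE libraries of each gene lie to the right of the 3 *VvSUC11*-OE libraries with a gap, and for *GAME17* the WT libraries lie farther right.

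Most wound-response genes tested were higher in *VvSUC27*-OE, with the largest differences in type 1 proteinase inhibitors. A list of 41 genes for the wound proteins of tomato, drawn up after values had been seen, had 30 tested members. Of these, 23 (76.7%, beside 3.67% of all tested genes) were DEGs higher in *VvSUC27*-OE and none was lower, with a median log2FC of 2.96. The filter had been passed in *VvSUC27*-OE alone by 7 of the 30. FDR alone was passed by 24 higher and 3 lower genes. No call on this list was lost in any alternative fit in which the gene was tested. Proteinase inhibitor I, which blocks serine proteinases in the insect gut, was encoded by a run of neighbouring genes (gene23054 to gene23066). The most abundant of them, gene23054, was at 9449, 8925 and 10190 FPKM in *VvSUC27*-OE and 884, 854 and 1006 FPKM in *VvSUC11*-OE (log2FC = 3.39, SE 0.0309, adjusted p = 3.15e-21). Its WT mean was 1398 FPKM and its *VvSUC12*-OE mean 2268 FPKM, so *VvSUC27*-OE stood above all other groups. For gene23060 the values were 352, 380 and 387 FPKM against 1.98, 1.05 and 0.745 FPKM (log2FC = 8.29, adjusted p = 1.41e-14), and for gene23057 226 to 246 FPKM against 1.32 to 2.35 FPKM (log2FC = 7.12). With 9, 4 and 3 scaled counts in *VvSUC11*-OE, gene23060 was an entry through *VvSUC27*-OE alone. gene23064 and gene23066 were listed at 0 in all *VvSUC11*-OE libraries and at 12.5 to 16.0 and 21.5 to 25.2 FPKM in *VvSUC27*-OE, at least 24.3-fold and 39.2-fold higher. All 10 tested genes of this inhibitor type were DEGs, 5 of them genes that passed the filter in *VvSUC27*-OE alone, and the eleventh, gene23061, was too low to test. These genes are near copies and the counting of reads shared between copies is not given in the sources used here, so the split among single copies is uncertain.

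Other wound proteins were also higher in *VvSUC27*-OE than in *VvSUC11*-OE. The metallocarboxypeptidase inhibitor gene17076 was at 29090, 26970 and 29160 FPKM against 4694, 4010 and 4435 FPKM (log2FC = 2.78, adjusted p = 1.93e-16), with WT and *VvSUC12*-OE between the lines at means of 17470 and 17120 FPKM. Threonine dehydratase 2 (*TD2*, gene21547), which degrades threonine in the herbivore gut, was at 173, 197 and 189 FPKM against 6.59, 5.58 and 6.14 FPKM (log2FC = 4.93, SE 0.0606, adjusted p = 1.83e-19). Its WT and *VvSUC12*-OE means of 120.5 and 23.8 FPKM lay between the lines. Leucine aminopeptidase A1 (*LAPA1*, gene28075), a wound-inducible peptidase, was at 22.3 to 24.2 FPKM against 0.568 to 0.823 FPKM (log2FC = 5.04), while its constitutive neutral relative (gene28077) was at 206 to 208 FPKM against 195 to 196 FPKM (log2FC = 0.06). The arginase pair showed the same contrast: the wound- and jasmonate-inducible *ARG2* (gene2009) was at 48.5 to 50.6 FPKM against 12 to 14 FPKM (log2FC = 1.96, adjusted p = 1.06e-13), and *ARG1* (gene2008) at 11.8 to 13.7 FPKM against 21.6 to 22.2 FPKM (log2FC = -0.80), which did not pass the fold threshold. Polyphenol oxidase E (gene20445), which oxidises phenolics to quinones, was at 54.8 to 56.5 FPKM against 0.766 to 2.40 FPKM (log2FC = 5.28). Here *VvSUC12*-OE, with a mean of 139.9 FPKM, and WT, with a mean of 96.8 FPKM, were above both lines, so *VvSUC11*-OE was the low group. The 7 tested members that were not DEGs had log2FC values from -0.98 to 0.75. Among them, the type-2 proteinase inhibitors gene8440 and gene26574 were lower past the FDR limit. Their means were 88.7 against 173 FPKM (log2FC = -0.98) and 350.5 against 543 FPKM (log2FC = -0.60). The proteinase inhibitor 2-like gene26568 was a DEG in the other direction, with means of 485 against 221 FPKM (log2FC = 1.11).

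The wound proteins did not move with every defence gene. On the wider list of pathogenesis-related proteins and proteinase inhibitors, 108 of 144 genes were tested. Of these, 22 (20.4%) were higher and 17 (15.7%) lower (median log2FC 0.14). Tested members that had passed the filter in *VvSUC27*-OE or *VvSUC11*-OE alone numbered 8 and 5. When a *VvSUC27*-OE library was left out and the filter on low values applied again, 13, 12 and 13 were higher without replicates 1, 2 and 3. Among the lower ones were proteins usually linked to salicylic acid or ethylene responses. A *PR1* protein gene (gene3212) was at 0.342, 0.965 and 0 FPKM in *VvSUC27*-OE and 21.0, 25.0 and 20.1 FPKM in *VvSUC11*-OE (log2FC = -6.08). The pathogenesis-related leaf protein 6 (gene30175) was at 0.600 to 1.65 FPKM against 28.2 to 47.5 FPKM, an osmotin-like protein (gene21033) at 19.2 to 24.4 FPKM against 125 to 157 FPKM (log2FC = -2.67, adjusted p = 1.49e-13), and pathogenesis-related protein P2 (gene2414) at 1.09 to 2.66 FPKM against 32.7 to 42.5 FPKM. Prosystemin (gene15856), the precursor of the wound peptide, was lower too, at 58.0 to 74.5 FPKM against 309 to 341 FPKM (log2FC = -2.26). The jasmonate and lipoxygenase list had calls in both directions: of 44 genes 33 were tested, with 5 higher and 5 lower (15.2% each, median log2FC 0.10). *OPR3* (gene17134), the reductase that leads to jasmonic acid, was at 186 to 193 FPKM against 79.1 to 81.6 FPKM (log2FC = 1.24, adjusted p = 3.35e-15) and a jasmonate ZIM-domain repressor (gene27995) had a log2FC of 1.56. Among the lower calls was *LOXB* (gene2597) at 0.485 to 0.631 FPKM against 43.7 to 47.6 FPKM (log2FC = -6.36, adjusted p = 5.18e-18). Another was *loxA* (gene19490) at 49.3 to 52.7 FPKM against 243 to 273 FPKM (log2FC = -2.37). Both are annotated as linoleate 9S-lipoxygenases and not as enzymes of jasmonate synthesis.

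**Figure D3:**
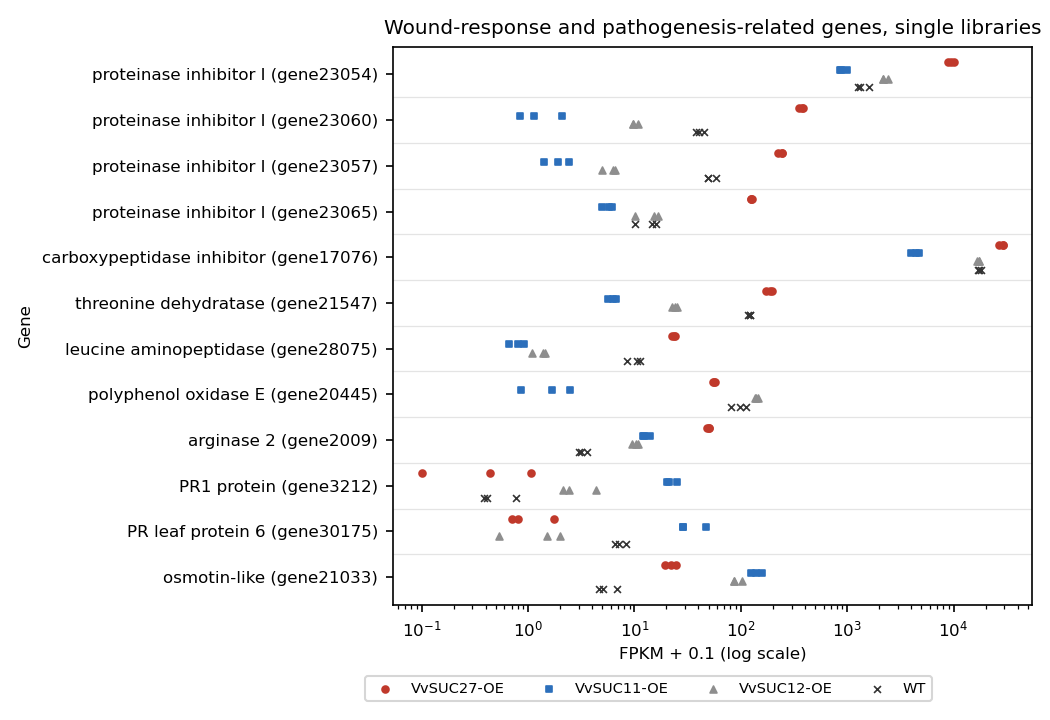
FPKM + 0.1 (log scale) of 12 wound-response and pathogenesis-related genes in single libraries, with red circles for *VvSUC27*-OE, blue squares for *VvSUC11*-OE, grey triangles for *VvSUC12*-OE and black crosses for WT. The wound genes lie to the right of *VvSUC11*-OE in *VvSUC27*-OE, whereas *PR1* (gene3212), leaf protein 6 (gene30175) and the osmotin-like gene (gene21033) lie to the left. For polyphenol oxidase E (gene20445) the *VvSUC12*-OE and WT libraries lie farther right than *VvSUC27*-OE.

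Most seed maturation transcripts were detected in *VvSUC11*-OE and at or near 0 in *VvSUC27*-OE, and many were also at or near 0 in WT and *VvSUC12*-OE. These are the storage proteins, oil body proteins (oleosins) and late embryogenesis abundant (LEA) proteins that embryos and endosperm lay down before they dry. On the list of seed genes, 49 of 86 were tested, with 19 lower (38.8%) and 3 higher (6.12%) and a median log2FC of -0.59. The filter had been passed in *VvSUC11*-OE alone by 12 of the 49. On a narrower list of maturation genes, chosen and trimmed after values had been seen, 26 of 52 were tested, 23 were lower and none higher. As 20 of those 26 entered through *VvSUC11*-OE alone, the count describes where these transcripts were detected and is no further evidence. The LEA protein LE25 (gene24995) was at 0, 0.372 and 0.266 FPKM in *VvSUC27*-OE and 13.3, 17.9 and 32.3 FPKM in *VvSUC11*-OE, a ratio of 120 with an interval of 46.7 to 443. In WT it was at 5.31, 5.75 and 4.56 FPKM, between the lines, and in *VvSUC12*-OE at 0.257, 0 and 0.272 FPKM, at the *VvSUC27*-OE level. Em protein H5 (gene14955), an early-methionine-labelled LEA protein, was at 0.660 to 1.35 FPKM against 13.3 to 33.4 FPKM (log2FC = -4.43, adjusted p = 8.65e-09), with 0.191 to 0.914 FPKM in WT and 0.168 to 0.653 FPKM in *VvSUC12*-OE. LEA protein B19.3 (gene21941) was listed at 0 in every *VvSUC27*-OE library and at 4.75, 5.35 and 16.5 FPKM in *VvSUC11*-OE, at least 19.2-fold lower, and it was also at 0 in all WT and *VvSUC12*-OE libraries. Oleosin 1 (gene14750), oleosin 5 (gene28157), the seed peroxidase 1-Cys peroxiredoxin (gene8208) and a vicilin (gene22576) were likewise at 0 in *VvSUC27*-OE and at 0.711 to 11.1 FPKM in *VvSUC11*-OE, and they were at 0 in *VvSUC12*-OE and at 0 to 0.143 FPKM in WT. For the 23 lower maturation genes the WT mean lay on the *VvSUC27*-OE side of the midpoint in 16 (69.6%) and the *VvSUC12*-OE mean in 19 (82.6%). Over all lower DEGs these shares were 63.1% and 63%. The WT share was thus near that of all lower DEGs, and the trimmed list only describes levels. Replicate 3 of *VvSUC11*-OE had the highest value of many of these genes. When single libraries were left out and the filter on low values was applied again, the lower seed genes fell from 19 to 6 without any *VvSUC11*-OE library, and with the tested genes held fixed they stayed at 17 to 18.

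Many of these transcripts were at low levels, and not every member differed. The LEA protein Lea5 (gene14568), also made in ageing and stressed tissue, was at 32.1 to 35.3 FPKM against 54.7 to 64.7 FPKM (log2FC = -0.74), with 108 to 114 FPKM in WT and 120 to 141 FPKM in *VvSUC12*-OE. An oleosin of another type (gene8626) was at 6.92, 8.70 and 11.4 FPKM against 9.62, 7.93 and 18.5 FPKM (log2FC = -0.25, adjusted p = 0.397), so that the lines overlapped. The 36 embryo and endosperm markers summed to 47.2 to 50.6 FPKM in *VvSUC27*-OE, 120 to 182 in *VvSUC11*-OE, 141 to 166 in *VvSUC12*-OE and 127 to 133 in WT, and 19, 3, 18 and 8 of the 36 were at 0 in all libraries of the respective group. Lea5 carried most of the WT and *VvSUC12*-OE sums. Without it, a sum added after seeing the data, the other 35 markers came to 14.8 to 18.1 FPKM in *VvSUC27*-OE, 61.1 to 117 in *VvSUC11*-OE, 18.9 to 25 in *VvSUC12*-OE and 17.4 to 19.5 in WT, so that *VvSUC11*-OE was the high group. Of the 36 markers 16 were tested, 13 were lower and none higher. Most of the 13 had under 10 scaled counts in every *VvSUC27*-OE library. They passed the filter in *VvSUC11*-OE alone, so that their libraries could not overlap, and this count is no further evidence. The list of seed coat and ovule markers, mostly TRANSPARENT TESTA transporters, went the other way in its sum, 747 to 759 FPKM against 486 to 497 FPKM. Of its 30 tested genes 5 were higher and 4 lower. Genes annotated as TRANSPARENT TESTA 12 carried most of the sum, such as gene25236 at 161 to 165 FPKM against 109 to 113 FPKM. A TRANSPARENT TESTA 12-like gene (gene17188) was at 120 to 128 FPKM against 23.5 to 27.8 FPKM (log2FC = 2.26), whereas another (gene11490) was at 0 against 2.92 to 3.42 FPKM. The tested *AGL11*-type MADS-box genes of the list were not DEGs, and their libraries overlapped between the lines. The log2FC was 0.16 for gene26656 and 0.36 for gene15601, with WT means of 38.7 and 93.7 FPKM above both lines. Whether the sum reflects the amount of ovule or seed coat tissue was not tested. The part of a different share of embryo, endosperm or ovule cells in the other results was not tested.

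**Figure D4:**
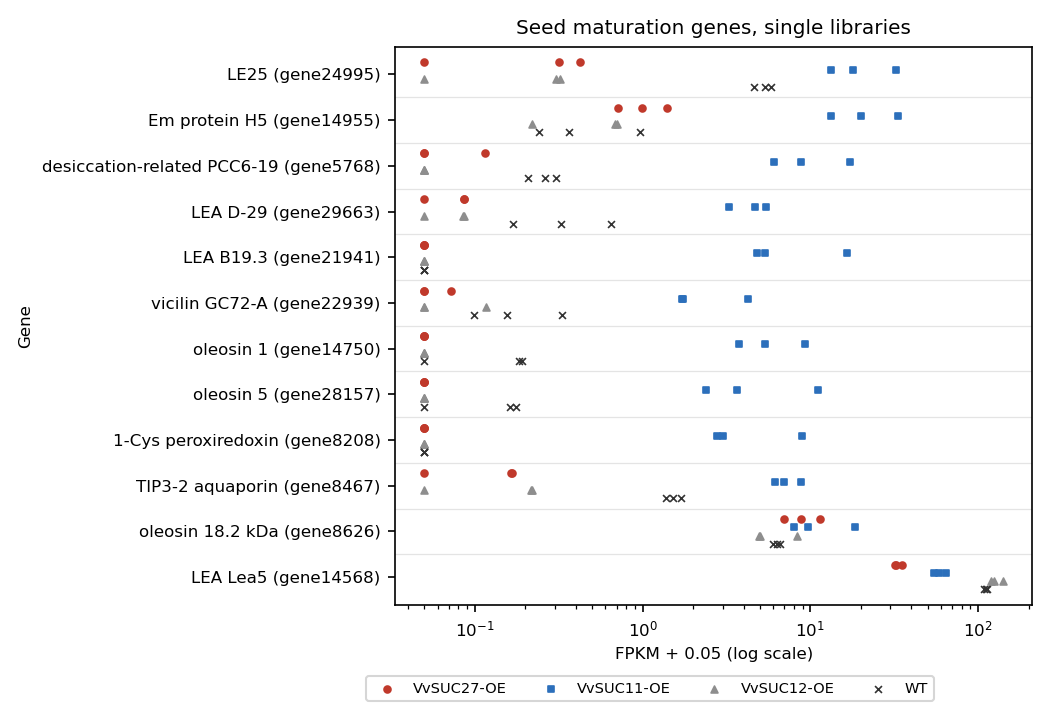
FPKM + 0.05 (log scale) of 12 seed maturation genes in single libraries, with red circles for *VvSUC27*-OE, blue squares for *VvSUC11*-OE, grey triangles for *VvSUC12*-OE and black crosses for WT. *VvSUC27*-OE libraries sit at or near 0 FPKM for most genes, except for the oleosin gene8626 and Lea5 (gene14568), and *VvSUC12*-OE and WT libraries lie with them for many genes.

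Cell division genes were modestly higher in *VvSUC27*-OE. Of 205 cell cycle and DNA replication genes 184 were tested, with 17 higher (9.24%) and 3 lower (1.63%), and the median log2FC was 0.43. On FDR alone 113 were higher and 16 lower, so most differences stayed below the fold threshold, and 7 of the 20 calls were lost in at least 1 alternative setting. The MCM helicase, which opens DNA at replication origins, was higher in 5 of its subunits. *MCM7* (gene1450) was at 24.1, 24.8 and 25.5 FPKM in *VvSUC27*-OE and 10.4, 8.80 and 10.1 FPKM in *VvSUC11*-OE (log2FC = 1.34), *MCM3* (gene4845) at 39.4 to 41.1 FPKM against 15.8 to 17.5 FPKM (log2FC = 1.24, adjusted p = 4.44e-13), and *MCM4*, *MCM5* and *MCM6* had log2FC values of 1.15, 1.16 and 1.12. Cyclin D3.1 (gene6521), which drives entry into the cycle, was at 71.8 to 74.6 FPKM against 26.1 to 30.6 FPKM (log2FC = 1.36, adjusted p = 1.07e-12). A cyclin-dependent kinase inhibitor 4-like gene (gene29603), from a family that restrains the cycle, was lower at 12.8 to 14.6 FPKM against 35.6 to 37.3 FPKM (log2FC = -1.41, adjusted p = 4.53e-12). For the 17 higher genes, the *VvSUC12*-OE mean lay on the *VvSUC27*-OE side of the midpoint in 17 and the WT mean in 15, which places *VvSUC11*-OE as the low group.

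Among the tomato's own sucrose transporters, *SlSUT1* (gene26425), the phloem loader, was lower in *VvSUC27*-OE at 46.4, 46.7 and 50.3 FPKM against 107, 108 and 116 FPKM in *VvSUC11*-OE (log2FC = -1.18, SE 0.0399, adjusted p = 1.14e-13). The libraries did not overlap, as for 66.1% of all tested genes. An exact two-sided permutation test gave p = 0.1, the smallest that 3 against 3 allows. The WT mean was 38.8 FPKM and the *VvSUC12*-OE mean 56.1 FPKM, so *VvSUC11*-OE was the high group. *SlSUT2* (gene12376) was at 22 to 25 FPKM against 22 to 24 FPKM (log2FC = 0.04, adjusted p = 0.607) and *SlSUT4* (gene11593) at 19.1 to 22.1 FPKM against 20.4 to 22.6 FPKM (log2FC = -0.06, adjusted p = 0.413), with overlapping libraries in both. Over all sugar transporters 40 of 57 genes were tested, 4 higher (10%) and 8 lower (20%) with a median log2FC of -0.13, and with 1 entry through each line alone. The SWEET family, uniporters that release sugars from cells, was split. A *SWEET14*-like gene (gene8333) was at 32.5 to 39.9 FPKM against 7.12 to 8.14 FPKM (log2FC = 2.31, adjusted p = 2.22e-12), and a *SWEET17*-like gene (gene2659) at 2.14 to 2.75 FPKM against 0, at least 13.8-fold higher. The N3 family members gene8361 and gene13286 were lower, at 2.44 to 5.24 FPKM against 28.7 to 31.3 FPKM and at 5.24 to 5.62 FPKM against 39.6 to 42.6 FPKM (log2FC = -3.13 and -2.88).

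Sucrose and starch enzymes were mostly below the fold threshold, with 2 higher (2.2%) and 4 lower (4.4%) of 91 tested from 109 genes (median log2FC 0.07). Both higher genes were invertases, which split sucrose. The cell wall invertase *LIN5* (gene21681) was at 31.9, 34.8 and 39.5 FPKM in *VvSUC27*-OE and 11, 10.8 and 9.37 FPKM in *VvSUC11*-OE (log2FC = 1.78, adjusted p = 5.98e-12), with WT between them at a mean of 23.3 FPKM. *LIN9* (gene20878) was at 9.18 to 10.1 FPKM against 4.32 to 5.00 FPKM (log2FC = 1.09). Proteins annotated as invertase inhibitors went the other way, gene29688 at 79.5 to 90.8 FPKM against 190 to 223 FPKM (log2FC = -1.28, adjusted p = 7.25e-12) and gene1857 at 16.9 to 22.7 FPKM against 45.9 to 54.6 FPKM (log2FC = -1.32). Trehalose-phosphate synthase 1 (gene17002), which makes a sugar signal, was at 0.624 to 1.09 FPKM against 5.2 to 5.95 FPKM (log2FC = -2.93). Sucrose synthase (gene28005), at 2314 to 2340 FPKM against 1526 to 1550 FPKM (log2FC = 0.60), did not reach the threshold.

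Pectin enzymes had 16 lower and 2 higher of 79 tested from 137 genes (median log2FC -0.12), with 3 entries through *VvSUC11*-OE alone and 1 through *VvSUC27*-OE alone. These were 20.3% lower and 2.53% higher, beside 6.99% and 3.67% of all tested genes. The list also holds both invertase inhibitors, which share a domain with pectinesterase inhibitors. Pectinesterase 1 (gene18846), which removes methyl groups from wall pectin, was at 41.8, 43.0 and 40.4 FPKM in *VvSUC27*-OE and 997, 1080 and 1089 FPKM in *VvSUC11*-OE (log2FC = -4.68, SE 0.0358, adjusted p = 6.2e-22). In WT it was near absent with a mean of 0.634 FPKM and in *VvSUC12*-OE it had a mean of 423 FPKM, so both lines compared lay above WT. Its neighbour pectinesterase 2.1 (gene18847) was at 25.7 to 29 FPKM against 119 to 128 FPKM (log2FC = -2.18), and the 2 genes may share reads. The polygalacturonase 1 beta subunit (gene12216), which binds pectin in the wall, was at 238 to 249 FPKM against 499 to 536 FPKM (log2FC = -1.08), and its relative AroGP2 (gene12215) at 4.11 to 4.69 FPKM against 49.2 to 53.3 FPKM (log2FC = -3.53). Cellulose, xyloglucan and wall protein genes had 9 higher (5.88%) and 17 lower (11.1%) of 153 tested from 215 genes (median log2FC -0.01). Entries through *VvSUC11*-OE or *VvSUC27*-OE alone numbered 3 and 2. The xyloglucan endotransglucosylase *XTH5* (gene1605), which cuts and rejoins xyloglucan, was at 2.25 to 3.24 FPKM against 41.9 to 48.1 FPKM (log2FC = -3.95). Cellulose synthase-like E6 (gene28341) at 34.2 to 36.0 FPKM against 2.57 to 3.29 FPKM (log2FC = 3.61) and an extensin-like protein (gene140) at 132 to 141 FPKM against 10.4 to 13.0 FPKM (log2FC = 3.59) were higher.

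The auxin list had 21 lower and 5 higher of 112 tested from 143 genes (median log2FC -0.04), 4 of them entries through *VvSUC11*-OE alone. The shares were 18.8% lower and 4.46% higher, beside 6.99% and 3.67% of all tested genes. An auxin-induced protein ARG2-like gene (gene22835), unrelated to the arginase of that name, was at 1027, 990 and 1113 FPKM in *VvSUC27*-OE and 10940, 10850 and 11850 FPKM in *VvSUC11*-OE (log2FC = -3.37, SE 0.0267, adjusted p = 6.2e-22). Its *VvSUC12*-OE and WT means of 2374 and 4781 FPKM lay between. An auxin-repressed protein (gene5123) was at 142 to 147 FPKM against 1167 to 1233 FPKM (log2FC = -3.06) and the response repressor *IAA3* (gene22613) at 50.4 to 60.3 FPKM against 144 to 174 FPKM (log2FC = -1.41), so that annotated auxin-induced and auxin-repressed genes were both lower. *ARF9* (gene21224), an auxin response factor known to restrain cell division in young tomato fruit, was at 5.48 to 6.77 FPKM against 1.69 to 2.71 FPKM (log2FC = 1.46). The efflux carrier *SlPIN6* (gene15300) had a log2FC of 0.08 (adjusted p = 0.459) and *SlPIN5* (gene1391) was too low to test.

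Ethylene genes had 28 lower and 4 higher of 118 tested from 166 genes (median log2FC -0.28), and 7 tested members had passed the filter in *VvSUC11*-OE alone. These were 23.7% lower and 3.39% higher, beside 6.99% and 3.67% of all tested genes. The ethylene-forming enzyme *ACO6* (gene4138) was at 171, 173 and 156 FPKM against 403, 419 and 410 FPKM (log2FC = -1.31, adjusted p = 3.47e-14), and WT was lower still at a mean of 60.2 FPKM. Most other calls were ERF transcription factors. *ERF017* (gene27997) was at 12.8 to 13.6 FPKM against 41.4 to 48.0 FPKM (log2FC = -1.71), and here WT was the highest group at 121 to 127 FPKM, while *ERF1*-like (gene1930) was higher at 118 to 131 FPKM against 55.7 to 66.9 FPKM (log2FC = 1.09). A SAM synthetase (gene2779), which supplies the precursor of ethylene and of many methylations, was at 411 to 434 FPKM against 1587 to 1716 FPKM (log2FC = -1.99, adjusted p = 1.18e-18). Gibberellin genes had 11 lower (25.6%) and 4 higher (9.3%) of 43 tested from 66 (median log2FC -0.33), 5 of the 43 through *VvSUC11*-OE alone. Among the higher ones 1 was *GAME4*, which that list holds because of its annotation as a kaurenoic acid oxidase. Gibberellin 20-oxidase-3 (gene27594), a late step of gibberellin synthesis, was at 14.8 to 16.0 FPKM against 78.7 to 84.4 FPKM (log2FC = -2.39, adjusted p = 3.69e-16), with the WT mean of 14.0 FPKM at the *VvSUC27*-OE level.

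Cytokinin genes had 10 higher (15.2%) and 6 lower (9.09%) of 66 tested from 88 (median log2FC -0.02), beside 3.67% and 6.99% of all tested genes. The higher ones included zeatin O-glucosyltransferase-like genes, whose family stores cytokinins as glucosides, with gene28065 at 1460 to 1475 FPKM against 494 to 507 FPKM (log2FC = 1.53) and gene27236 at 603 to 619 FPKM against 144 to 158 FPKM (log2FC = 2.03), and they also included *GAME17* because of its annotation. Abscisic acid genes had 1 higher (4.76%) and 2 lower (9.52%) of 21 tested from 34 (median log2FC -0.30). Abscisic acid stress ripening protein *ASR1* (gene11281), a small hydrophilic protein, was at 1042 to 1069 FPKM against 3762 to 4087 FPKM (log2FC = -1.91, adjusted p = 8.61e-18). The receptor *PYL4* (gene25541) had a log2FC of 1.00 and lost its call in several settings, among them without replicate 2 of *VvSUC11*-OE (0.98) and without replicate 3 of *VvSUC27*-OE (0.89).

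Several epidermal homeodomain and protodermal factor genes were higher in *VvSUC27*-OE than in *VvSUC11*-OE. Of 27 such genes, drawn up after values had been seen, 15 were tested and 8 (53.3%) were higher with none lower (median log2FC 1.22). Through *VvSUC27*-OE alone came 2 of the 15. For the 8 higher genes the *VvSUC12*-OE mean lay on the *VvSUC27*-OE side of the midpoint in 8 and the WT mean in 7. *VvSUC11*-OE was thus the low group for most of them, and *HDG1*-like, near 0 in WT, was the exception. Besides *HDG1*-like, *HDG5* (gene20612) was at 5.01 to 5.86 FPKM against 0.791 to 1.28 FPKM (log2FC = 2.38, adjusted p = 8.12e-10) and protodermal factor 1 (gene18536) at 26.8 to 31.7 FPKM against 8.23 to 10.04 FPKM (log2FC = 1.77). A *MERISTEM L1* gene (gene23504), log2FC 0.98, and *GLABRA2* (gene9411), log2FC -0.65, were not DEGs. A second protodermal factor 1-like gene (gene28167) sat at the threshold (log2FC = 1.01) and lost its call without replicate 2 of *VvSUC11*-OE (0.92) or replicate 1 of *VvSUC27*-OE (0.96). Over all homeobox genes 11 were higher (12.6%) and 14 lower (16.1%) of 87 tested from 113 (median log2FC -0.06), 4 through each line alone. *ATH1* (gene20079) was at 2.87 to 3.69 FPKM against 21.5 to 24.8 FPKM (log2FC = -2.84). On the cuticle and wax list calls went in both directions, 17 lower and 8 higher of 92 tested from 141 genes (median log2FC -0.19), 4 through *VvSUC11*-OE alone. The shares were 18.5% lower and 8.7% higher, beside 6.99% and 3.67% of all tested genes. *GPAT6* (gene21900), which makes cutin monomers, was at 72.9, 67.8 and 74.5 FPKM in *VvSUC27*-OE and 235, 251 and 285 FPKM in *VvSUC11*-OE (log2FC = -1.80, adjusted p = 6.14e-15). *CER1* (gene29286), of alkane synthesis, had a log2FC of -1.46 (adjusted p = 9.31e-13), and *HOTHEAD* (gene14795) at 212 to 225 FPKM against 467 to 548 FPKM (log2FC = -1.18). The fatty acid elongase *CER6* (gene5870) had a log2FC of -1.03 and lost its call without replicate 3 of *VvSUC11*-OE. For the 17 lower cuticle genes the *VvSUC12*-OE mean lay on the *VvSUC27*-OE side in 17 and the WT mean in 16. An esterase of the GDSL type, a family that includes the cutin-joining enzymes, was lower at gene18126 (40.6 to 44.9 FPKM against 145 to 194 FPKM) and higher at gene10795 (222 to 232 FPKM against 48.2 to 57.5 FPKM).

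Defensins and lipid-transfer proteins are small secreted proteins that reach very high levels in young fruit. They had 7 higher (18.4%) and 11 lower (28.9%) of 38 tested from 75 genes (median log2FC -0.22), 3 through *VvSUC11*-OE alone. Defensin-like protein P322 (gene17122) was at 2118, 2159 and 2075 FPKM against 245, 234 and 224 FPKM (log2FC = 3.25, adjusted p = 2.44e-17) and the WT mean of 163 FPKM was below both. The most abundant defensin (gene16988), at 53120 to 54140 FPKM against 26870 to 29790 FPKM, lay at the threshold (log2FC = 1.02), and the call was lost with equal totals (0.95), on FPKM (0.91) and without replicate 2 of either line. Lipid-transfer proteins differed by copy, gene24840 at 1269 to 1418 FPKM against 177 to 215 FPKM (log2FC = 2.84) and gene24835 at 2254 to 2414 FPKM against 5674 to 6722 FPKM (log2FC = -1.34).

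The remaining lists had calls in both directions or few calls, with at most 4 entries through *VvSUC27*-OE alone and at most 6 through *VvSUC11*-OE alone in any of them. Their shares are given beside 3.67% higher and 6.99% lower of all tested genes. Photosynthesis genes, a measure of the green tissue, had 3 higher (3.75%) and 4 lower (5%) of 80 tested from 83 (median log2FC 0.00). The 54 green tissue markers summed to 19600 to 20300 FPKM against 19200 to 20400 FPKM, so that this part of the fruit did not separate the lines. Pollen and anther markers had no DEG among 17 tested. Heat shock genes had 7 higher (5.22%) and 12 lower (8.96%) of 134 tested from 148 (median log2FC 0.05). Phenylpropanoid genes had 15 (12.2%) and 16 (13%) of 123 from 184 (median log2FC 0.02). Among them chalcone synthase 1B (gene23253), the entry to flavonoids, was at 823 to 889 FPKM against 245 to 293 FPKM (log2FC = 1.70). Peroxidases had 4 higher (11.1%) and 6 lower (16.7%) of 36 tested from 73 (median log2FC -0.28), and proteases 8 (5.97%) and 16 (11.9%) of 134 from 179 (median log2FC -0.02). WRKY and NAC factors had 4 (5.33%) and 13 (17.3%) of 75 from 118 (median log2FC -0.24), and terpene enzymes 1 (3.03%) and 3 (9.09%) of 33 from 45 (median log2FC -0.26). Aquaporins had 2 higher (6.9%) and 7 lower (24.1%) of 29 tested from 35 (median log2FC 0.00). An aquaporin-like gene (gene16387) was at 1188 to 1227 FPKM against 476 to 506 FPKM (log2FC = 1.33), and 3 of the lower ones were the TIP3-2 type of seed vacuoles. MADS-box genes had 2 higher (5.71%) and 1 lower (2.86%) of 35 tested from 65 (median log2FC -0.03), with 2 entries through *VvSUC27*-OE alone. The lower one was *TDR8* (gene8478) at 7.67 to 9.45 FPKM against 44.4 to 52.0 FPKM (log2FC = -2.54). Flower and pollen genes had 2 higher (9.09%) and none lower of 22 tested from 36 (median log2FC -0.12). Both higher ones (gene5140 and gene5142) had passed the filter in *VvSUC27*-OE alone, so that their libraries could not overlap between the lines.

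**Figure D5:**
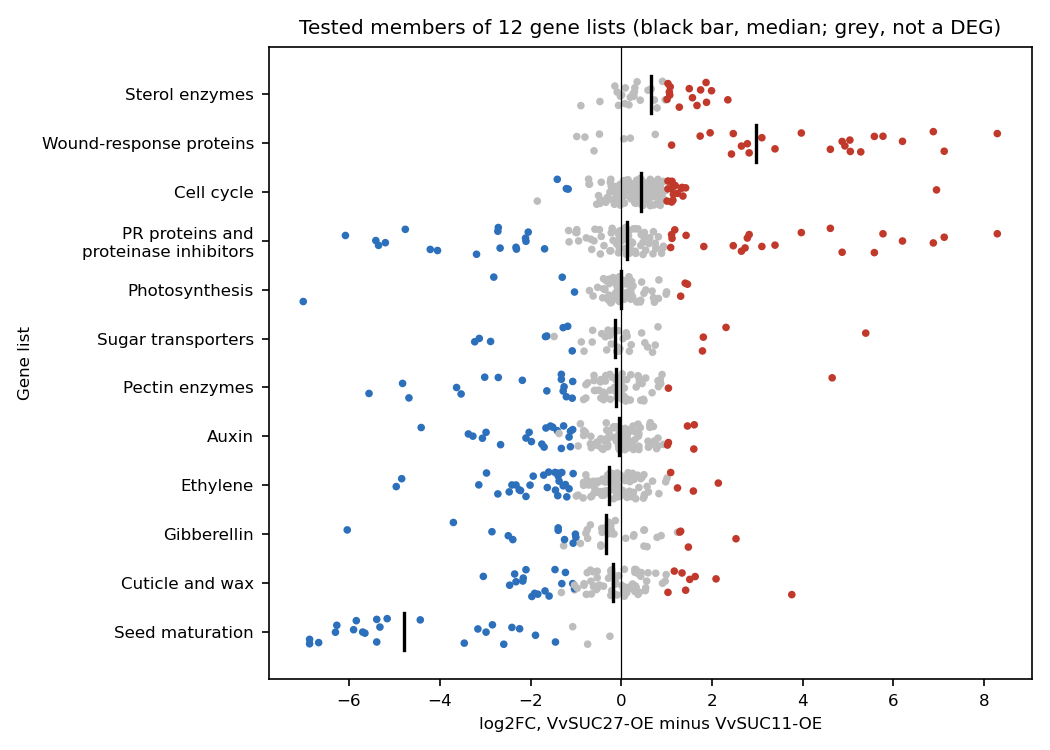
log2FC, *VvSUC27*-OE minus *VvSUC11*-OE, of the tested members of 12 gene lists, with red and blue points for DEGs higher and lower in *VvSUC27*-OE, grey points for genes that were not DEGs and a black bar at each median. Sterol (median 0.66) and wound (2.96) genes lie to the right, the cell cycle genes are shifted as a block (0.43), and the seed maturation genes (-4.79) lie to the left.

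The levels of the other groups showed which line stood apart. Of the 2002 DEGs, the WT mean lay on the *VvSUC27*-OE side of the midpoint for 64.4% and the *VvSUC12*-OE mean for 62.2%, a description of levels with no test. The groups of genes differed in this respect. *VvSUC11*-OE was the group apart for most of the higher cell cycle and lower cuticle DEGs, as given above. For the lower maturation DEGs, on a list trimmed after values had been seen, the WT share of 69.6% was near that of all DEGs. For the 19 lower genes of the seed list WT lay on the *VvSUC27*-OE side in 16 and *VvSUC12*-OE in 15. For the 10 proteinase inhibitor I genes *VvSUC12*-OE lay on the *VvSUC11*-OE side in all 10 and WT in 6. For the 23 higher wound genes *VvSUC12*-OE lay on the *VvSUC27*-OE side in 6 and WT in 14. For the 16 lower pectin genes WT lay on the *VvSUC27*-OE side in 14 and *VvSUC12*-OE in 11. For the 28 lower ethylene genes WT lay on the *VvSUC27*-OE side in 11 and *VvSUC12*-OE in 15.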

How the data were processed

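Total RNA of whole fruits at 5 DPA was sequenced on an Illumina platform from 3 libraries per group. The authors aligned filtered reads with TopHat2 (TopHat per the labels, version not given in the sources used here) to the NCBI tomato assembly SL2.50. The deposited gene table gives an FPKM and a count column per library. The deposited count columns are treated as a score, not as raw reads, because the authors had scaled and rounded them, and the planned count model was therefore replaced by limma 3.58.1 with a mean-variance trend (R 4.3.3). Genes that reached 10 scaled counts in 3 or more libraries out of 6 were fitted on log2(scaled count + 1), *VvSUC27*-OE against *VvSUC11*-OE, with the study's thresholds (FDR under 0.01 and |log2FC| above 1) and Benjamini-Hochberg adjustment over all 18777 genes. Fold changes on this scale understate the change of low genes. FPKM are printed as deposited. The columns of the authors' own comparisons (fold changes and FDR) were not used. All DEGs are counted by this fit.

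The members and gene lists were chosen with earlier results of these data known. Lists were built from annotation words, and words that matched inside unrelated names were removed after the annotations had been read. The wound, proteinase inhibitor I, seed maturation, epidermis, sterol and glycoalkaloid lists were added, and the maturation list trimmed, after values had been seen. Genes were named by rule: *SlSUT1*, *SlSUT2*, *SlSUT4*, *SlPIN5*, *SlPIN6*, gene18846 and gene14822, then, among DEGs with an informative annotation (a leading "PREDICTED:" was ignored), at least 50 scaled counts on average and libraries that did not overlap, the 5 largest log2FC in each direction, the 2 largest in each direction per list and the most abundant member per list. All other named genes were chosen after their values were seen. Symbols came from the RefSeq gene table (assembly SLM_r2.1, used for names only), reached for 6956 of 7271 genes with a tomato KEGG gene ID, of which 901 had a symbol. No column of a sample outside the labels was found. Overlapping and antisense genes are uncertain, since use of strand in counting is not given in the sources used here. The fit was tested on simulated data. Alternatives were another pseudocount, filter, scaling or value, all 12 libraries, a replicate block and single libraries left out. Intervals treat scaled counts as counts.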

Additional observations from a re-analysis of the deposited data

How the results depend on the processing

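The number of DEGs, 2002 in the report, was 1895 with log2(value + 5), 2276 without a filter on low values, 2080 with equal library totals (29.4% of them higher), 2013 with median ratio scaling, 1931 on log2(FPKM + 0.1) and 1983 in a fit over all 12 libraries. No DEG changed sign under any of these. With only genes of a mean of at least 50 scaled counts, 1302 DEGs were left, 823 of them lower, with 13 lower auxin, 18 lower ethylene and 6 lower seed genes, since fewer genes were tested. Without a filter the lower seed genes numbered 29. Leaving out single libraries with the tested genes held fixed gave 1887 to 2000 DEGs, 646 to 734 higher and 1228 to 1302 lower, and 17 to 18 lower seed genes. Applying the filter again after each library was left out, an alternative chosen after seeing the data, gave 1650 to 1871 DEGs, 555 to 724 higher and 993 to 1297 lower. Lower seed genes then ranged from 6 to 18, with 6 without any *VvSUC11*-OE library, and higher pathogenesis-related and inhibitor genes from 12 to 22, with 13, 12 and 13 without *VvSUC27*-OE replicates 1, 2 and 3, where fewer genes passed the filter.

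Libraries with the same replicate number shared only that number: their deviations from the group means correlated at -0.01, 0.03 and 0.07, below the limit of 0.1. With the replicate block 2002 DEGs were found, 1981 of them among the 2002 of the fit without it.

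Of the 131 genes that the naming rule gave, 4 lost their call in some planned setting (gene12183 of the pectin list, gene25541, gene16988 and gene28167), all with a log2FC near 1, and none changed direction. DESeq2 was not run because the count columns are scaled, and promoter motifs were not searched because no sequences were used here. Outlier libraries were not looked for in groups of 3. Depth limits the genes listed at 0, for which only bounds are given, and 3 libraries of a single line per genotype limit every comparison to these lines.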

Other observations

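Some of the most abundant differences fell on no list and were named after their values were seen. A hypersensitive response assisting protein (gene17008) was at 1398, 1442 and 1401 FPKM in *VvSUC27*-OE and 122, 126 and 126 FPKM in *VvSUC11*-OE (log2FC = 3.57, limma adjusted p = 2.69e-21). Next to it in the numbering, an RNase LX-like gene (gene17009), from a family of S-like ribonucleases, was at 1710 to 1803 FPKM against 163 to 179 FPKM (log2FC = 3.38). An uncharacterised gene (gene26599) was at 2388 to 2522 FPKM against 107 to 135 FPKM (log2FC = 4.44), with means of 535 FPKM in *VvSUC12*-OE and 558 FPKM in WT. None of these genes overlapped between the lines, which was also so for 66.1% of all tested genes.

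A phosphomethylethanolamine N-methyltransferase (gene28888), which makes the head group of phosphatidylcholine, was at 376 to 386 FPKM against 63.4 to 69.1 FPKM (log2FC = 2.59). A lambda-class glutathione S-transferase (gene21402) was at 432 to 443 FPKM against 75.6 to 82.1 FPKM (log2FC = 2.51). In the other direction, thiamine thiazole synthase (gene18845), which makes the thiazole ring of vitamin B1, was at 913 to 950 FPKM against 2232 to 2301 FPKM (log2FC = -1.28).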
